A study of Mus musculus with 12 samples.

Results

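The mouse Zfp genes numbered below 500 were followed through the activation of CD8 T cells. A member was any gene in the deposited expression table whose symbol is Zfp followed only by such a number, with the exception of Zfp36, which encodes an mRNA-decay factor of another zinc finger class. The rule used names and no measured value, and it gave 118 genes of the 12885 gene symbols listed. The cells came from spleens of 6-week-old mice of the C57Bl/6 strain that were either homozygous for the Ikaros-Zn4 mutation (Zn4) or wild type (WT), and the labels name no Cre driver or cell-type restriction for the mutation. Naive CD8+ cells with high CD62L and low CD44 were sorted, and either taken at once (0 h) or stimulated for 12 h or 24 h by plate-bound antibodies to CD3 and CD28. The 6 groups were therefore Zn4 at 0 h, 12 h and 24 h and WT at 0 h, 12 h and 24 h, with 2 libraries in each. Because the labels do not say that the libraries of a group come from separate animals, all p-values measure the spread between these libraries, which may be technical.

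Most Zfp genes encode C2H2 proteins, in which a run of zinc-binding fingers reads out DNA bases. Many also carry a KRAB box, which recruits the corepressor Trim28 (KAP1) and through it the histone methyltransferase Setdb1 and HP1 proteins, and so silences retrotransposons and genes near the binding site. Others work outside this pathway, as activators, RNA-binding proteins or mitotic factors. Ikaros is itself a C2H2 protein with a central role in lymphocyte development, and Zn4 names a zinc finger in its DNA-binding region. T cell activation takes a small resting cell into growth and, later, division, so that total RNA per cell increases while each library reports only relative amounts.

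Library totals ran from 24263907 to 33389808 reads, of which members held 96940 to 137494. The median over members of the median number of reads per library was 563, and the lowest such median was 29. All 8 CD8 T cell markers checked were listed, with a sum of 1659 to 2987 RPKM (read counts scaled by transcript length and by library depth) per library. Of the markers of other cells, 1 of 3 for CD4 T cells, 1 of 6 for B cells, 1 of 8 for myeloid cells, 1 of 5 for NK cells and 0 of 5 for erythroid cells were listed. The NK marker listed was Nkg7, which activated CD8 T cells also express, at 361 to 684 RPKM in stimulated Zn4 cells and 199.7 to 286 RPKM in stimulated WT cells, and its part in the results was not tested. Proliferation markers summed to 2.18 to 4.62 RPKM at 0 h and 12 h and to 156 to 224 RPKM at 24 h. The labels give female mice throughout, but 4 Y-linked genes summed to 43.4 and 21 RPKM in the Zn4 libraries of 12 h and to 38.9 RPKM in WT 12 h replicate 1, against 0.00198 RPKM in WT 12 h replicate 2 and at most 0.0209 RPKM elsewhere. The number of members called in each comparison that uses the 12 h libraries is therefore also given with the Y-linked level as a covariate. A named call that the covariate ended is stated as such. In Zn4 cells both libraries of 12 h, and no others, held these transcripts at clear levels, so there the covariate largely follows the 12 h group. A call that it ended may reflect this overlap or the Y-linked level itself, and these cannot be told apart. Shared lists, counts over several comparisons, 2-fold counts and counts by KRAB box or in other gene lists are given without it. In bulk RNA, fewer cells of a type and less RNA per cell cannot be told apart.

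Members were expressed at low to moderate levels. Averaged over the 12 libraries, 29 of the 118 lay at 10 RPKM or more, 79 between 1 and 10 RPKM and 10 below 1 RPKM, with a median of 5.09 RPKM. The highest averages were 36.1 RPKM for Zfp146, 32.7 RPKM for Zfp207 and 29.6 RPKM for Zfp445. Zfp207 (BuGZ) binds microtubules and acts at the mitotic spindle, and Zfp445 helps to maintain genomic imprints. The lowest average was 0.553 RPKM. The deposited table lists no gene whose highest group mean is below 1.0005 RPKM, so silent Zfp genes are outside this account. Of the 118, 117 had at least 1 RPKM in at least 2 libraries and were tested, and the exception was Zfp455, which reached at most 1.16 RPKM.

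A coding sequence was at hand for 117 members, which encoded a median of 10 C2H2 fingers, with a range of 0 to 37. Fingers were found in 115 of them, and none in Zfp330, a nucleolar protein, or Zfp365. A KRAB box was found in 62 members and not in 55. Members with a KRAB box had a median of 12 fingers and a median level of 2.76 RPKM, and members without had 8 fingers and 7.81 RPKM. Some transcripts are alike in sequence: more than 10% of the 50-base windows were shared with another gene in 15 members, among them Zfp58 (59.0%), Zfp59 (57.0%), Zfp429 (29.4%), Zfp93 (25%), Zfp7 (20.6%), Zfp28 (19.7%), Zfp87 (19.7%) and Zfp384 (15.9%). Reads of these members could have been split or lost in counting, and their values are uncertain to that degree. The median shared portion over members was 0.252%. The libraries were stranded, but the sources used here do not say whether counting used the strand, so reads of overlapping antisense genes may be included.

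**Figure D1:**
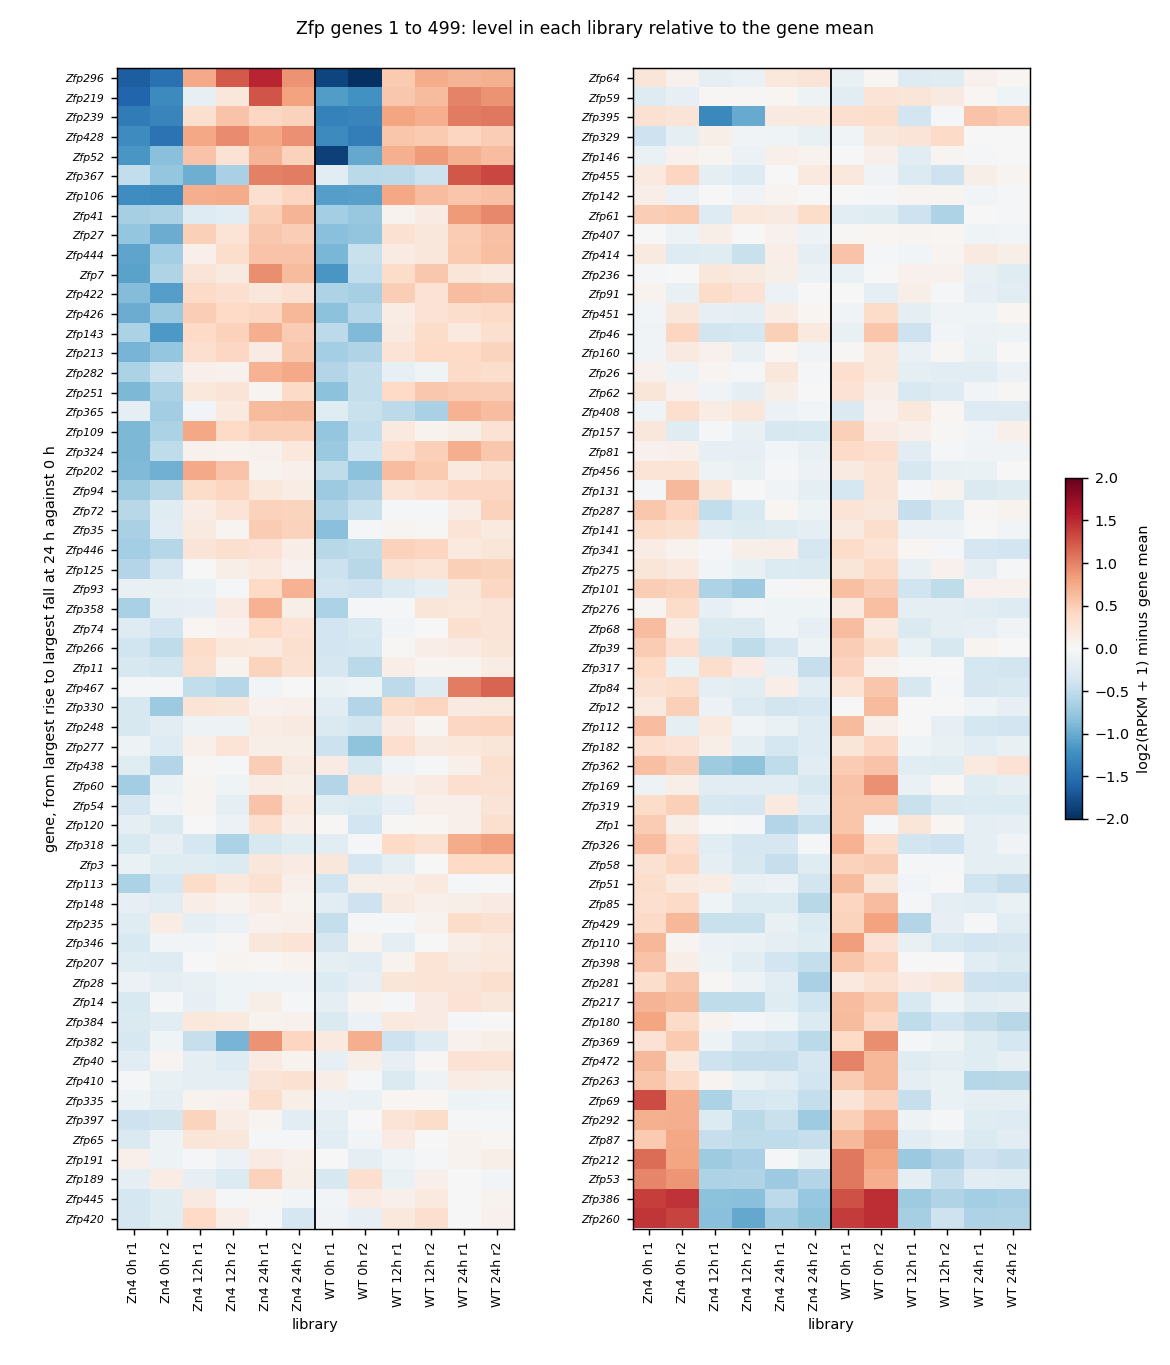
Level of each of the 118 Zfp genes in each of the 12 libraries, as log2(RPKM + 1) minus the gene's mean over libraries (colour, capped at 2 in either direction), in 2 blocks of rows sorted from the largest rise to the largest fall at 24 h against 0 h. Zn4 libraries stand left of the black line and WT libraries right of it; the pairs of 0 h columns differ from the stimulated ones in opposite ways at the top and bottom of the list, in both genotypes.

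Activation moved Zfp genes in both directions, and their share of all listed RPKM was lower after stimulation. The share was 0.275% to 0.314% after stimulation and 0.367% to 0.403% at 0 h. The sum over the 118 genes was 819 to 905 RPKM in every library at the deposited scaling, and it was not computed under the other scalings. Resting and stimulated libraries did not overlap in the share. Listed genes held 73.5% to 75.9% of all reads at 0 h and 82% to 85.6% after stimulation, so the whole behind this share also grew. A gene low at 0 h can be listed through a stimulated group, so part of that growth may be built in. At the deposited scaling, 97 to 101 members reached 1 RPKM at 0 h, 103 to 107 at 12 h and 107 to 114 at 24 h. This order is partly built in. Genes are listed only if a group mean reached 1.0005 RPKM, so a member low at 0 h is listed only through a stimulated group. The same count over all genes was not made.

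At 12 h against 0 h, 41 of 117 tested members rose and 36 fell in Zn4 cells (limma on log2(RPKM + 1), Benjamini-Hochberg adjusted p under 0.05 over all 12726 genes tested). Over all genes in Zn4 cells, 73% were called, 43.5% higher and 29.6% lower. In WT cells 36 members rose and 38 fell, where 70.2% of all genes were called, 43.1% higher and 27% lower. The median log2 change of members was -0.04 in Zn4 cells and 0.02 in WT cells, and that of all genes was 0.19 in Zn4 cells and 0.20 in WT cells. These splits depend on scaling. With median-ratio scaling, 29 members rose and 50 fell in Zn4 cells and 27 rose and 51 fell in WT cells, with a members' median of -0.26 in Zn4 cells and -0.22 in WT cells and a median of all genes of -0.02 in each. Quantile normalization gave 34 rises and 46 falls in Zn4 cells and 27 and 47 in WT cells. With the Y-linked level as a covariate, 50 members were called in Zn4 cells, against 77 without it, and 69 in WT cells, against 74 without it. Here and below, counts under other scalings or with this covariate are given without the share of all genes called. They therefore cannot be set against all genes.

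The largest rise at 12 h on the log2(RPKM + 1) scale was that of Zfp296, a reprogramming factor known from mouse stem cells. In Zn4 cells, Zfp296 had 0.649 and 0.824 RPKM at 0 h, 7.69 and 11.1 RPKM at 12 h and 13.8 and 8.55 RPKM at 24 h. In WT cells, Zfp296 had 0.434 and 0.214 RPKM at 0 h, 6.38 and 7.65 RPKM at 12 h and 7.22 and 7.45 RPKM at 24 h. Its stimulated libraries lay above every resting library in both genotypes. The log2 change at 12 h was 2.56 ± 0.22 in Zn4 cells and 2.60 ± 0.22 in WT cells (SE; adjusted p = 3.8e-06 in Zn4 cells and 4.1e-06 in WT cells). On this scale, 1 RPKM is added to each value before the logarithm, so the ratio of mean RPKM was larger, at 12.7 in Zn4 cells and 21.7 in WT cells. By that ratio Zfp239 (18.2) and Zfp428 (13.5) stood above Zfp296 in Zn4 cells.

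Zfp52, a KRAB protein with 14 fingers, was the member with the next largest rise in WT cells. In Zn4 cells, Zfp52 had 9.09 and 11.7 RPKM at 0 h, 32.7 and 26.8 RPKM at 12 h and 35.3 and 30.3 RPKM at 24 h. In WT cells, Zfp52 had 5.24 and 10.2 RPKM at 0 h, 36.0 and 39.8 RPKM at 12 h and 36.1 and 33.6 RPKM at 24 h. Resting and stimulated libraries did not overlap in either genotype. The change at 12 h was 1.44 ± 0.24, adjusted p = 0.000384 in Zn4 cells and 2.22 ± 0.24, adjusted p = 2.2e-05 in WT cells. Zfp106, an RNA-binding protein needed for motor neuron function in mice, was among the more abundant members. In Zn4 cells, Zfp106 had 7.68 and 7.51 RPKM at 0 h, 33.0 and 33.4 RPKM at 12 h and 24.6 and 26.7 RPKM at 24 h. In WT cells, Zfp106 had 8.57 and 8.67 RPKM at 0 h, 34.3 and 30.5 RPKM at 12 h and 29.4 and 29.9 RPKM at 24 h. Its libraries at 12 h and 24 h all lay above those at 0 h, with a change at 12 h of 1.99 ± 0.08, adjusted p = 3.7e-08 in Zn4 cells and 1.79 ± 0.08, adjusted p = 8.7e-08 in WT cells.

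Other large rises at 12 h were those of Zfp239 (1.81 ± 0.11 in Zn4 cells, 2.09 ± 0.11 in WT cells), Zfp428 (2.23 ± 0.12 in Zn4 cells, 1.87 ± 0.12 in WT cells) and Zfp219 (1.45 ± 0.18 in Zn4 cells, 1.75 ± 0.18 in WT cells). Zfp219 is known as a partner of Sox9 in cartilage. Further rises were those of Zfp7 (1.06 ± 0.22 in Zn4 cells, 1.28 ± 0.22 in WT cells), Zfp202 (1.59 ± 0.13 in Zn4 cells, 1.24 ± 0.13 in WT cells), Zfp251 (0.99 ± 0.15 in Zn4 cells, 1.12 ± 0.15 in WT cells) and Zfp27 (1.25 ± 0.12 in Zn4 cells, 1.08 ± 0.12 in WT cells), and all of these were called in both genotypes. Of the members called at 12 h, 23 were at least 2-fold higher and 15 at least 2-fold lower in mean RPKM in Zn4 cells, and 25 and 15 in WT cells. The 2-fold counts were made for members only, so they cannot be set against all genes.

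The falls were led by Zfp386 and Zfp260. In Zn4 cells, Zfp386 had 9.05 and 9.53 RPKM at 0 h, 1.19 and 1.16 RPKM at 12 h and 1.70 and 1.28 RPKM at 24 h. In WT cells, Zfp386 had 8.39 and 9.77 RPKM at 0 h, 1.37 and 1.54 RPKM at 12 h and 1.42 and 1.46 RPKM at 24 h. Every stimulated library lay far below every resting one. The change at 12 h was -2.24 ± 0.12, adjusted p = 1.5e-07 in Zn4 cells and -2.03 ± 0.12, adjusted p = 3.5e-07 in WT cells.

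In Zn4 cells, Zfp260 had 18.0 and 17.2 RPKM at 0 h, 2.98 and 2.47 RPKM at 12 h and 3.40 and 3.04 RPKM at 24 h. In WT cells, Zfp260 had 17.7 and 18.8 RPKM at 0 h, 3.48 and 4.33 RPKM at 12 h and 3.61 and 3.66 RPKM at 24 h. For this gene too, stimulated and resting libraries stood apart in both genotypes. The change at 12 h was -2.32 ± 0.11, adjusted p = 1.1e-07 in Zn4 cells and -1.98 ± 0.11, adjusted p = 3.5e-07 in WT cells. Other large falls at 12 h, called in both genotypes, were those of Zfp212 (-1.64 ± 0.13 in Zn4 cells, -1.60 ± 0.13 in WT cells), Zfp53 (-1.54 ± 0.13 in Zn4 cells, -1.21 ± 0.13 in WT cells), Zfp472 (-0.86 ± 0.15 in Zn4 cells, -1.04 ± 0.15 in WT cells) and Zfp429 (-0.96 ± 0.17 in Zn4 cells, -1.0 ± 0.17 in WT cells). They also included Zfp101 (-1.14 ± 0.10 in Zn4 cells, -1.0 ± 0.10 in WT cells), Zfp180 (-0.57 ± 0.14 in Zn4 cells, -0.97 ± 0.14 in WT cells), Zfp87 (-1.14 ± 0.11 in Zn4 cells, -0.93 ± 0.11 in WT cells) and Zfp69 (-1.51 ± 0.20 in Zn4 cells, -0.65 ± 0.20 in WT cells). Of the 20 members named here for their rise or fall at 12 h, the Y-linked covariate ended the Zn4 calls of Zfp180 (adjusted p = 0.109) and Zfp429 (0.06) and the WT call of Zfp69 (0.104), and no others.

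**Figure D2:**
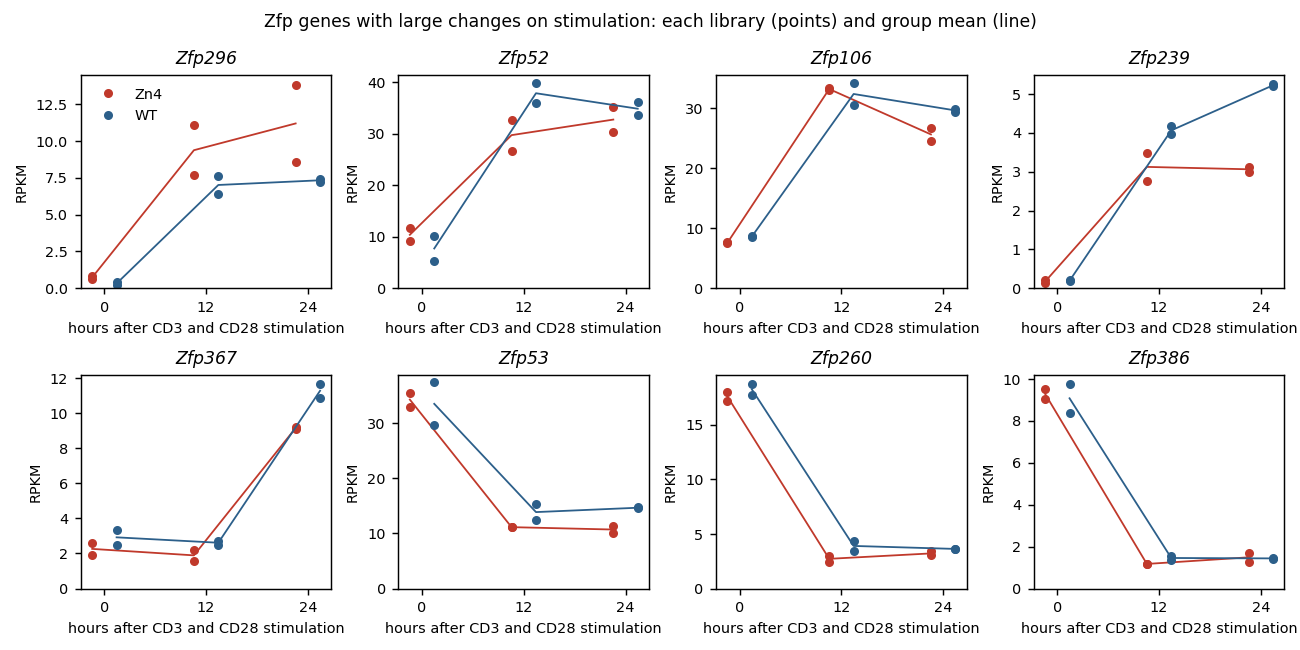
RPKM of 8 Zfp genes with large changes, by hours after stimulation through CD3 and CD28; points are libraries, lines join the means of 2 libraries, and Zn4 (red) is drawn left of WT (blue). Zfp296, Zfp52, Zfp106 and Zfp239 were high by 12 h and Zfp367 at 24 h, while Zfp53, Zfp260 and Zfp386 were low at both stimulated times.

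At 24 h against 0 h, 45 members rose and 33 fell in Zn4 cells, where 74.7% of all genes were called (48.7% higher, 26% lower). In WT cells 42 rose and 37 fell, where 73.9% of all genes were called (48.3% higher, 25.6% lower). The median change of members was 0.11 in Zn4 cells and 0.04 in WT cells, against 0.31 over all genes in each. Under median-ratio scaling 33 members rose and 51 fell in Zn4 cells and 33 rose and 57 fell in WT cells, with a members' median of -0.13 in Zn4 cells and -0.30 in WT cells. The median of all genes under that scaling was 0 in Zn4 cells and -0.002 in WT cells. Under quantile normalization 32 rose and 52 fell in Zn4 cells and 32 rose and 59 fell in WT cells. Large rises were those of Zfp296 (2.78 ± 0.22 in Zn4 cells, 2.66 ± 0.22 in WT cells), Zfp239 (1.79 ± 0.11 in Zn4 cells, 2.38 ± 0.11 in WT cells), Zfp219 (2.46 ± 0.18 in Zn4 cells, 2.11 ± 0.18 in WT cells), Zfp52 (1.57 ± 0.24 in Zn4 cells, 2.10 ± 0.24 in WT cells) and Zfp428 (2.22 ± 0.12 in Zn4 cells, 1.79 ± 0.12 in WT cells). The rises of Zfp106 (1.63 ± 0.08 in Zn4 cells, 1.67 ± 0.08 in WT cells), Zfp367 (1.65 ± 0.15 in Zn4 cells, 1.66 ± 0.15 in WT cells), Zfp41 (1.22 ± 0.11 in Zn4 cells, 1.62 ± 0.11 in WT cells), Zfp27 (1.40 ± 0.12 in Zn4 cells, 1.36 ± 0.12 in WT cells), Zfp444 (1.43 ± 0.17 in Zn4 cells, 1.25 ± 0.17 in WT cells) and Zfp7 (1.62 ± 0.22 in Zn4 cells, 1.05 ± 0.22 in WT cells) were also called in both genotypes. Large falls were those of Zfp260 (-2.14 ± 0.11 in Zn4 cells, -2.06 ± 0.11 in WT cells), Zfp386 (-2.05 ± 0.12 in Zn4 cells, -2.04 ± 0.12 in WT cells), Zfp53 (-1.59 ± 0.13 in Zn4 cells, -1.13 ± 0.13 in WT cells) and Zfp212 (-1.06 ± 0.13 in Zn4 cells, -1.36 ± 0.13 in WT cells). Further falls in both genotypes were those of Zfp263 (-0.77 ± 0.11 in Zn4 cells, -1.15 ± 0.11 in WT cells), Zfp180 (-0.77 ± 0.14 in Zn4 cells, -1.05 ± 0.14 in WT cells), Zfp472 (-0.82 ± 0.15 in Zn4 cells, -1.02 ± 0.15 in WT cells), Zfp87 (-1.13 ± 0.11 in Zn4 cells, -1.0 ± 0.11 in WT cells), Zfp369 (-0.87 ± 0.17 in Zn4 cells, -0.96 ± 0.17 in WT cells) and Zfp69 (-1.40 ± 0.20 in Zn4 cells, -0.55 ± 0.20 in WT cells). Of the called members, 32 were at least 2-fold higher and 13 at least 2-fold lower in Zn4 cells, and 30 and 13 in WT cells, again without a count over all genes.

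Fewer members moved between 12 h and 24 h. In Zn4 cells 15 rose and 7 fell, with 33.6% of all genes called (22.6% higher, 11% lower). In WT cells 15 rose and 2 fell, with 24% of all genes called (17% higher, 6.94% lower). The 2 that fell in WT cells were Zfp281 (-0.61 ± 0.13), a regulator of pluripotency, and Zfp263 (-0.39 ± 0.11). Zfp281 was not called without WT 12 h replicate 2 or either WT library of 24 h (adjusted p = 0.0524 to 0.067). Zfp263 was not called once any of the 4 WT libraries of 12 h and 24 h was left out (0.0893 to 0.128), or with the Y-linked covariate (0.105). The direction of this split depends on scaling. Under median-ratio scaling 12 rose and 11 fell in Zn4 cells and 10 rose and 6 fell in WT cells, and under quantile normalization 10 rose and 18 fell in Zn4 cells and 5 rose and 12 fell in WT cells. With median-ratio scaling the members' median was -0.004 in Zn4 cells and -0.027 in WT cells, against -0.033 and -0.041 over all genes. With the Y-linked level as a covariate, 4 members were called in Zn4 cells and 7 in WT cells. The Zn4 count was 11 without Zn4 12 h replicate 1. The WT count was 7 when the first WT library of either time was left out, 10 when the second of 12 h was, and 6 when the second of 24 h was.

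Zfp367, a factor with 2 fingers and no KRAB box, had the largest rise of this interval on the log2(RPKM + 1) scale. By the ratio of mean RPKM, Zfp467 (6.94 in Zn4 cells and 12.3 in WT cells) stood above Zfp367 (4.84 in Zn4 cells and 4.32 in WT cells), and so did Zfp365 in WT cells (4.83). In Zn4 cells, Zfp367 had 2.58 and 1.94 RPKM at 0 h, 1.56 and 2.22 RPKM at 12 h and 9.11 and 9.19 RPKM at 24 h. In WT cells, Zfp367 had 3.37 and 2.47 RPKM at 0 h, 2.50 and 2.72 RPKM at 12 h and 10.9 and 11.7 RPKM at 24 h. Both libraries of 24 h lay above all libraries of 0 h and 12 h in each genotype, while 0 h and 12 h lay close together. The change at 24 h against 12 h was 1.82 ± 0.15, adjusted p = 3.4e-05 in Zn4 cells and 1.77 ± 0.15, adjusted p = 5.1e-05 in WT cells, and it was called under every alternative run. The rise of Zfp367 fell in the interval in which the proliferation markers also rose, and their part in it was not tested.

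The promoter windows of Zfp367 are shown because its rise coincided with that of the proliferation markers. RefSeq (GRCm38.p6) lists 2 start sites for Zfp367, each given here from 250 bases before to 50 bases after the start, 5′ to 3′ on the minus strand, at chr13:64153150-64153449 and chr13:64152324-64152623. Capitals mark the 2 E2F-type motifs searched, GCGGGAAA (TTTCCCGC on the other strand) in the window listed first and GCGCCAAA (TTTGGCGC on the other strand) in the other. Further forms of the motif were not searched and are left unmarked, such as gcgcgaaa in the window listed first.
Zfp367 upstream start: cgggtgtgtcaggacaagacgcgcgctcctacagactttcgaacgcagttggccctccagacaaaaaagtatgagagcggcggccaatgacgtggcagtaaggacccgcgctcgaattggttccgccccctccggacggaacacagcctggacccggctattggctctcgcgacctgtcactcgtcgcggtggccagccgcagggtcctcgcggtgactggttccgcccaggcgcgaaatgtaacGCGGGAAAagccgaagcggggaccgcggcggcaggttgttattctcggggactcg
Zfp367 downstream start: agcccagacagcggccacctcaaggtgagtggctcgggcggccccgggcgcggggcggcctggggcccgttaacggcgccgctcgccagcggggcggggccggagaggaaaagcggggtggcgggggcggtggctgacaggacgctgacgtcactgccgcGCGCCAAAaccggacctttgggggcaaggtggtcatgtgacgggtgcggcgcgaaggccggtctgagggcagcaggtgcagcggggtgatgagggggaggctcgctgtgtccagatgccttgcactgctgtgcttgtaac
On either strand, TTTCCCGC was present in 1.71% of 117 member windows, those of Zfp367 and Zfp414, against 1.07% of all 32851 mouse promoter windows of this length and 2.1% of the 10246 windows of tested genes. TTTGGCGC was present in 3.42% of member windows, against 0.514% of all windows and 1.03% of those of tested genes. The 4 members with it were Zfp61, Zfp213, Zfp367 and Zfp444. These matches describe letters and not binding sites.

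Further rises between 12 h and 24 h were those of Zfp467 (0.50 ± 0.12 in Zn4 cells and 1.49 ± 0.12 in WT cells), Zfp395 (1.34 ± 0.13 in Zn4 cells and 0.76 ± 0.13 in WT cells) and Zfp41 (0.81 ± 0.11 in Zn4 cells and 0.79 ± 0.11 in WT cells). Zfp101 (0.67 ± 0.10 in Zn4 cells, 0.53 ± 0.10 in WT cells), Zfp93 (0.64 ± 0.13 in Zn4 cells, 0.54 ± 0.13 in WT cells) and Zfp282 (0.63 ± 0.10 in Zn4 cells, 0.49 ± 0.10 in WT cells) rose in both genotypes. Zfp365 (0.57 ± 0.17 in Zn4 cells and 1.24 ± 0.17 in WT cells), whose human counterpart ZNF365 is linked to genome stability, did so as well. The Zn4 calls of Zfp93, Zfp282, Zfp365 and Zfp467 were lost with the Y-linked covariate (adjusted p = 0.169 for Zfp93, 0.0813 for Zfp282, 0.242 for Zfp365 and 0.382 for Zfp467), as were the WT calls of Zfp93 (0.0896) and Zfp282 (0.054). In Zn4 cells, Zfp382 (1.36 ± 0.22), Zfp219 (1.01 ± 0.18) and Zfp212 (0.58 ± 0.13) also rose. The 7 members that fell in Zn4 cells included Zfp202 (-0.58 ± 0.13), Zfp106 (-0.36 ± 0.08) and Zfp91 (-0.38 ± 0.11), a ubiquitin ligase of the NF-kappa-B pathway. With the Y-linked covariate the calls of Zfp382, Zfp219, Zfp212, Zfp202, Zfp106 and Zfp91 were all lost (adjusted p = 0.0702 for Zfp382 to 0.457 for Zfp91).

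Most calls against 0 h were shared between the genotypes, whose responses share no library. At 12 h against 0 h, 33 members rose in both, 80.5% of the Zn4 list and 91.7% of the WT list, where over all genes tested 88.6% of the Zn4 list and 89.3% of the WT list were shared. Falls were shared by 31 members, 86.1% of the Zn4 list and 81.6% of the WT list (80.9% and 88.5% over all genes). At 24 h against 0 h, 36 rises were shared (80.0% of the Zn4 list, 85.7% of the WT list) and 30 falls (90.9% of the Zn4 list, 81.1% of the WT list). Over all genes the shares at 24 h were 88.4% of the Zn4 list and 89% of the WT list for rises, and 81.1% and 82.6% for falls. At 24 h against 12 h, 12 rises were shared, 80.0% of each list (60% of the Zn4 list and 79.6% of the WT list over all genes). Only 1 fall was shared there, that of Zfp281, 14.3% of the Zn4 list and 50% of the WT list (41.3% and 65.5% over all genes). Its change in Zn4 cells was -0.39 ± 0.13 (adjusted p = 0.047). That call was lost under 13 alternatives, among them the Y-linked covariate. The overlap at 24 h against 12 h was not counted with this covariate, under which fewer members were called in each genotype. In none of the 3 comparisons was a member called in opposite directions.

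**Figure D3:**
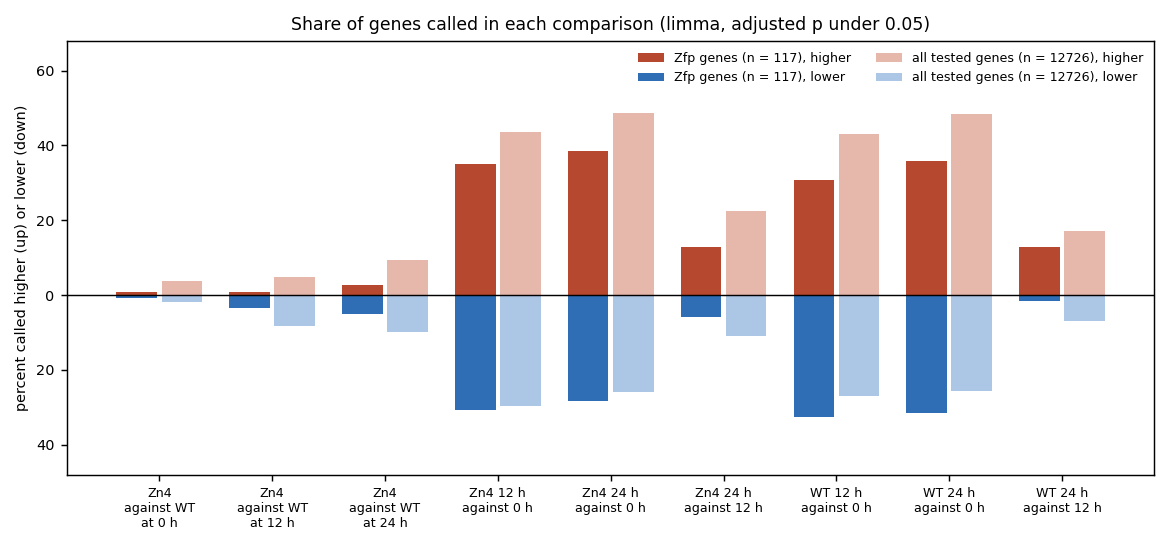
Percent of tested genes called higher (upward bars) or lower (downward bars) in each of the 9 comparisons, for the 117 Zfp genes tested (dark bars) and for all 12726 genes tested (pale bars), at the deposited scaling. Against 0 h, Zfp genes were called higher in 30.8% to 38.5% of cases, against 43.1% to 48.7% of all genes, and lower in 28.2% to 32.5% of cases, against 25.6% to 29.6% of all genes.

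Over the 4 comparisons with 0 h, 29 members (24.8%) were called higher in all and 27 (23.1%) lower in all at the deposited scaling, against 34.6% of all genes tested higher and 18.3% lower. The 2 comparisons of a genotype share its 0 h libraries. Non-overlapping groups are common with 2 libraries a group: they were found for 85.4% of all genes in Zn4 cells and 87.4% in WT cells at 24 h against 0 h, and between genotypes for 39.8% at 0 h, 63.2% at 12 h and 68.7% at 24 h. At the other end, 17 members (14.5%) were called in none of the 9 comparisons between groups, against 8.52% of all genes tested. They include Zfp131, Zfp407 and Zfp451, a SUMO ligase, and also Zfp146, the member with the highest average. In Zn4 cells, Zfp146 had 32.8 and 38.4 RPKM at 0 h, 37.7 and 33.1 RPKM at 12 h and 38.7 and 37.8 RPKM at 24 h. In WT cells, Zfp146 had 36.4 and 38.7 RPKM at 0 h, 31.0 and 37.5 RPKM at 12 h and 35.6 and 36.0 RPKM at 24 h. All 12 of these values lay between 31.0 and 38.7 RPKM.

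Among members with a well studied role, Zfp143 (Staf), an activator of small nuclear RNA genes and many other promoters, rose at both times. In Zn4 cells, Zfp143 had 4.61 and 2.95 RPKM at 0 h, 10.6 and 11.1 RPKM at 12 h and 13.4 and 11.4 RPKM at 24 h. In WT cells, Zfp143 had 5.07 and 3.76 RPKM at 0 h, 8.94 and 10.3 RPKM at 12 h and 9.01 and 9.85 RPKM at 24 h. Resting and stimulated libraries were fully apart. The change at 24 h against 0 h was 1.51 ± 0.18, adjusted p = 3.5e-05 in Zn4 cells and 0.96 ± 0.18, adjusted p = 0.000781 in WT cells.

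Zfp292, a large zinc finger protein, and Zfp217, which works with the CoREST and CtBP corepressors, fell. In Zn4 cells, Zfp292 had 19.0 and 19.3 RPKM at 0 h, 9.11 and 7.41 RPKM at 12 h and 8.06 and 6.47 RPKM at 24 h. In WT cells, Zfp292 had 16.1 and 18.9 RPKM at 0 h, 10.4 and 11 RPKM at 12 h and 9.41 and 9.31 RPKM at 24 h. In Zn4 cells, Zfp217 had 21.7 and 21.1 RPKM at 0 h, 8.99 and 9.03 RPKM at 12 h and 11.1 and 9.86 RPKM at 24 h. In WT cells, Zfp217 had 21 and 19.5 RPKM at 0 h, 10.6 and 12.4 RPKM at 12 h and 11.3 and 11.5 RPKM at 24 h. In both genes all stimulated libraries lay below all resting ones. At 24 h against 0 h, Zfp292 changed by -1.30 ± 0.13, adjusted p = 9.5e-06 in Zn4 cells and -0.83 ± 0.13, adjusted p = 0.000213 in WT cells. Zfp217 changed by -0.97 ± 0.10, adjusted p = 1.1e-05 in Zn4 cells and -0.77 ± 0.10, adjusted p = 5.3e-05 in WT cells.

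Zfp281 (-0.87 ± 0.13 in Zn4 cells and -0.67 ± 0.13 in WT cells at 24 h against 0 h), Zfp263 (-0.77 ± 0.11 in Zn4 cells, -1.15 ± 0.11 in WT cells), Zfp110 (-0.58 ± 0.20 in Zn4 cells, -0.92 ± 0.20 in WT cells), which binds a neurotrophin receptor, and Zfp326 (-0.66 ± 0.15 in Zn4 cells, -0.65 ± 0.15 in WT cells), part of a complex that couples transcription and splicing, fell in both genotypes. The Zn4 call of Zfp110 was lost without Zn4 0 h replicate 1 (adjusted p = 0.225) or either Zn4 library of 24 h (0.0751 and 0.0933). Zfp395 had -0.08 ± 0.13 in Zn4 cells and 0.21 ± 0.13 in WT cells and was called in neither at 24 h. Zfp410, which activates Chd4, had 0.37 ± 0.09 in Zn4 cells (called) and 0.09 ± 0.09 in WT cells (not called). Zfp335, a factor needed for T cell maturation, had 0.38 ± 0.09 in Zn4 cells (called) and 0.04 ± 0.09 in WT cells (not called). Small positive values such as these are smaller than or close to the shift of 0.31 in the median gene. The rises of Zfp148, Zfp207, Zfp384, Zfp410 and Zfp445 called in Zn4 cells at 24 h turned to values just below 0 under median-ratio and quantile scaling, and that of Zfp335 under quantile scaling.

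Differences by genotype were few. At 0 h, 1 member was higher and 1 lower in Zn4 cells, of 117, where 5.72% of all genes were called (3.76% higher, 1.96% lower). At 12 h, 1 was higher and 4 were lower, where 13.1% of all genes were called (4.85% higher, 8.28% lower). At 24 h, 3 were higher and 6 lower, where 19.4% of all genes were called (9.4% higher, 9.96% lower). The called share of members was 1.71% at 0 h, 4.27% at 12 h and 7.69% at 24 h. At an unadjusted p under 0.05, 13 members (11.1%) differed at 0 h, 20 (17.1%) at 12 h and 23 (19.7%) at 24 h, against 18.3%, 25.8% and 32.3% of all genes at those times. Zfp318, Zfp362 and Zfp28 were called at both 12 h and 24 h, 60.0% of the 12 h list and 33.3% of the 24 h list. This overlap was counted for members only, so it cannot be set against all genes. With the Y-linked covariate, 3 members were called at 12 h. Single libraries moved these counts: at 0 h 1 member was called without WT 0 h replicate 2 or either WT library of 24 h, and 0 without Zn4 0 h replicate 1. At 12 h, 2 were called without WT 12 h replicate 2 or Zn4 12 h replicate 2, and 3 without the other library of either group or either WT library of 24 h. At 24 h, 4 were called without the first library of either group, 3 without WT 24 h replicate 2, and 5 without either Zn4 library of 12 h. With the replicate number as a block at each time point, an alternative chosen after seeing the data, 3 members were called at 0 h (10.6% of all genes), 13 at 12 h (20.8% of all genes) and 20 at 24 h (29.8% of all genes).

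At rest, Zn4 cells had more Zfp61 and less Zfp169. In Zn4 cells, Zfp61 had 3.77 and 3.92 RPKM at 0 h, 1.85 and 2.94 RPKM at 12 h and 2.85 and 3.41 RPKM at 24 h. In WT cells, Zfp61 had 1.96 and 1.89 RPKM at 0 h, 1.55 and 1.23 RPKM at 12 h and 2.39 and 2.36 RPKM at 24 h. The genotypes did not overlap at any time, and the change was called only at 0 h (0.73 ± 0.15, adjusted p = 0.0239). In Zn4 cells, Zfp169 had 2.15 and 2.64 RPKM at 0 h, 1.88 and 1.88 RPKM at 12 h and 1.89 and 1.69 RPKM at 24 h. In WT cells, Zfp169 had 4.01 and 5.36 RPKM at 0 h, 2.09 and 2.47 RPKM at 12 h and 1.85 and 1.98 RPKM at 24 h. For Zfp169 the genotypes were apart at 0 h (-0.74 ± 0.14, adjusted p = 0.0128) and lay close together at 24 h (-0.06 ± 0.14, adjusted p = 0.793). Both calls rest on single libraries: Zfp61 had an adjusted p of 0.0807 without Zn4 0 h replicate 1, 0.109 without replicate 2, 0.0725 without WT 0 h replicate 1, 0.0859 without replicate 2, and 0.0506 without either WT library of 24 h. Zfp169 had 0.0776 without Zn4 0 h replicate 1 and 0.0623 without WT 0 h replicate 2, so that without that WT library neither gene was called and the 1 call counted there is another member.

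Zfp318 was lower in Zn4 cells at both stimulated times. The protein is known in B cells, where it governs the expression of IgD. In Zn4 cells, Zfp318 had 4.99 and 5.59 RPKM at 0 h, 4.82 and 3.76 RPKM at 12 h and 4.91 and 5.26 RPKM at 24 h. In WT cells, Zfp318 had 5.43 and 6.30 RPKM at 0 h, 8.73 and 8.20 RPKM at 12 h and 11.5 and 12.1 RPKM at 24 h. WT libraries stood in order of time without overlap, and all 6 Zn4 libraries lay between 3.76 and 5.59 RPKM. Zn4 was lower than WT at 12 h (-0.85 ± 0.12, adjusted p = 0.00177) and at 24 h (-1.07 ± 0.12, adjusted p = 0.000392) and was not called at 0 h (-0.12 ± 0.12, adjusted p = 0.678). Both calls held under every alternative run.

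The response of Zfp318 itself differed between genotypes. The genotype by time interaction was -0.95 ± 0.17, adjusted p = 0.0111 at 24 h against 0 h and -0.72 ± 0.17, adjusted p = 0.0428 at 12 h against 0 h, 2 values that share the 0 h libraries. The call at 24 h was lost without WT 24 h replicate 2 (adjusted p = 0.0625). That at 12 h was lost under 16 alternatives, among them the Y-linked covariate (0.071), median-ratio scaling (0.0573) and the removal of any single library except WT 0 h replicate 2 or Zn4 12 h replicate 1 (0.0507 to 0.125). Of the 6 B cell markers, Cd79b alone was listed, and the summed level moved with Zfp318 at 24 h: 1.56 and 1.73 RPKM in Zn4 cells, against 6.62 and 6.53 RPKM in WT cells. At 12 h it was 0.298 and 0.609 RPKM in Zn4 cells, against 1.58 and 2.32 RPKM in WT cells. At 0 h it was 1.55 and 1.11 RPKM in Zn4 cells, against 2.05 and 1.54 RPKM in WT cells. The part of B cells in the Zfp318 result was not tested.

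Zfp467, known for its role in adipocyte formation, had the largest called difference among members at 24 h on the log2(RPKM + 1) scale. In Zn4 cells, Zfp467 had 0.511 and 0.523 RPKM at 0 h, 0.10 and 0.0512 RPKM at 12 h and 0.496 and 0.555 RPKM at 24 h. In WT cells, Zfp467 had 0.413 and 0.461 RPKM at 0 h, 0.0774 and 0.303 RPKM at 12 h and 2.16 and 2.50 RPKM at 24 h. The WT libraries of 24 h stood alone, above all 10 others. Zn4 was lower at 24 h (-1.12 ± 0.12, adjusted p = 0.000278), with a ratio of mean RPKM of 0.226, and the interaction was -1.20 ± 0.17, adjusted p = 0.00425. Both calls held under every alternative that tested the gene; a filter at 5 RPKM removed it. At 12 h this gene had 12 and 6 reads in Zn4 cells, against 8 and 43 reads in WT cells.

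The promoters of Zfp467 and Zfp318 are shown because these genes carry the clearest differences by genotype and because Ikaros binds sites with the core GGGAA. Each window runs from 250 bases before to 50 bases after the RefSeq start (GRCm38.p6), 5′ to 3′ on the strand of the gene, at chr6:48445041-48445340 on the minus strand for Zfp467 and at chr17:46383516-46383815 on the plus strand for Zfp318. Capitals mark GGGAA or its reverse complement TTCCC.
Zfp467: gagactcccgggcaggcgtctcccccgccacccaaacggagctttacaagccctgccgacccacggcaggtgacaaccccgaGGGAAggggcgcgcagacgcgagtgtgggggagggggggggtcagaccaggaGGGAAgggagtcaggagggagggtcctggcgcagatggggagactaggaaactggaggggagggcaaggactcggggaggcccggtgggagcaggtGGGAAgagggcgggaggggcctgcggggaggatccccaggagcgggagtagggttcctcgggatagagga
Zfp318: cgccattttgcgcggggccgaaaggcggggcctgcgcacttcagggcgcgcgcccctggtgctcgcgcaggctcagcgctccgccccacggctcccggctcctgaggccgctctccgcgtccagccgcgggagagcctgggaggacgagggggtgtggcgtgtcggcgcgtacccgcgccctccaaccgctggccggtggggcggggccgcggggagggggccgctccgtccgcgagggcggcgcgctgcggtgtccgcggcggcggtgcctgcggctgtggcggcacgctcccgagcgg
The Zfp467 window held 3 copies of GGGAA, and the Zfp318 window held none and had 49 CG pairs. A copy on either strand was present in 62.7% of all 32851 mouse promoter windows and in 64.3% of the 10246 windows of tested genes. Among 117 windows of the 97 members with an entry, it was present in 59.8%. GGGAA is also contained in the E2F-type motif GCGGGAAA, so that 1 stretch can match both. No match in a window says only that these letters are not in it.

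Zfp395 fell further in Zn4 cells at 12 h. In Zn4 cells, Zfp395 had 9.26 and 8.92 RPKM at 0 h, 2.43 and 3.14 RPKM at 12 h and 8.49 and 8.55 RPKM at 24 h. In WT cells, Zfp395 had 9.57 and 9.63 RPKM at 0 h, 5.39 and 7.10 RPKM at 12 h and 11.4 and 11 RPKM at 24 h. At 12 h the Zn4 libraries lay below the WT libraries and below all other values of the gene, and by 24 h both genotypes had again reached levels near those of 0 h. The difference at 12 h was -0.93 ± 0.13, adjusted p = 0.00147, and the interaction was -0.86 ± 0.18, adjusted p = 0.0281. With the Y-linked covariate the difference at 12 h had an adjusted p of 0.00382 and the interaction 0.0407. Leaving out any single library except WT 12 h replicate 1, Zn4 12 h replicate 2 or those of Zn4 24 h ended the call of the interaction (adjusted p = 0.0568 to 0.112). The call of the difference at 12 h held under every alternative run.

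Zfp239 rose in both genotypes and was lower in Zn4 cells at 24 h. In Zn4 cells, Zfp239 had 0.140 and 0.204 RPKM at 0 h, 2.77 and 3.48 RPKM at 12 h and 3.0 and 3.13 RPKM at 24 h. In WT cells, Zfp239 had 0.179 and 0.206 RPKM at 0 h, 4.17 and 3.96 RPKM at 12 h and 5.20 and 5.25 RPKM at 24 h. The genotypes overlapped at 0 h and not at 12 h or 24 h, and the difference was called at 24 h alone. At 24 h the difference was -0.62 ± 0.11, adjusted p = 0.00428, a call that held under every alternative run. The interaction was -0.59 ± 0.15, adjusted p = 0.0474, and 18 of 23 alternatives ended this call; the fit to recovered reads gave an adjusted p of 0.408, median-ratio scaling gave 0.0531, and the removal of any single library outside Zn4 12 h gave 0.0584 to 0.167.

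Zfp362 was lower in Zn4 cells at both stimulated times. At 0 h its mean was 10.3 RPKM in each genotype. Against 0 h it changed at 12 h by -1.30 ± 0.11 in Zn4 cells and -0.77 ± 0.11 in WT cells. At 24 h the changes were -0.90 ± 0.11 in Zn4 cells and -0.30 ± 0.11 in WT cells. No interaction was called for this gene. In Zn4 cells, Zfp362 had 3.74 and 3.42 RPKM at 12 h and 4.45 and 5.69 RPKM at 24 h. In WT cells, Zfp362 had 5.67 and 5.55 RPKM at 12 h and 7.82 and 8.45 RPKM at 24 h. The genotypes did not overlap at either stimulated time. The difference was -0.53 ± 0.11, adjusted p = 0.0137 at 12 h and -0.60 ± 0.11, adjusted p = 0.00592 at 24 h. The call at 12 h ended without any single library of 12 h (adjusted p = 0.0567 to 0.0867), and that at 24 h without WT 24 h replicate 2 (0.0621).

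Zfp382 rose at 24 h against 0 h in Zn4 cells (0.86 ± 0.22) and was not called in WT cells (-0.36 ± 0.22). In Zn4 cells, Zfp382 had 3.72 and 4.55 RPKM at 0 h, 3.27 and 2.09 RPKM at 12 h and 9.92 and 6.94 RPKM at 24 h. In WT cells, Zfp382 had 5.70 and 8.75 RPKM at 0 h, 3.39 and 3.88 RPKM at 12 h and 5.22 and 5.36 RPKM at 24 h. Both Zn4 libraries of 24 h lay above all other Zn4 libraries, and in WT cells those of 24 h lay below those of 0 h. The interaction at 24 h against 0 h was 1.23 ± 0.31, adjusted p = 0.0448, while the genotypes themselves were not called different at 24 h (0.57 ± 0.22, adjusted p = 0.111) or at 0 h (-0.66 ± 0.22, adjusted p = 0.141). This call ended under 13 alternatives, including a fit without the libraries of 12 h (adjusted p = 0.0799) and the removal of any single library except WT 0 h replicate 1, Zn4 24 h replicate 2 or those of Zn4 12 h (0.0683 to 0.151).

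Differences were called for 6 further members. Zfp365 was higher in Zn4 cells at 12 h, at 1.24 and 1.65 RPKM in Zn4 cells against 0.617 and 0.478 RPKM in WT cells (0.65 ± 0.17, adjusted p = 0.0319). At 24 h, Zfp428 (0.39 ± 0.12, adjusted p = 0.0487), Zfp282 (0.35 ± 0.10, adjusted p = 0.0368) and Zfp335 (0.32 ± 0.09, adjusted p = 0.033) were higher in Zn4 cells. Zfp335 had 19.9 and 16.8 RPKM in Zn4 cells against 14.4 and 14.6 RPKM in WT cells. Zfp53 was lower at 24 h (-0.42 ± 0.13, adjusted p = 0.0446), and Zfp28 was lower at 12 h (-0.37 ± 0.10, adjusted p = 0.0339) and 24 h (-0.36 ± 0.10, adjusted p = 0.0307). Zfp28 had 0.952 and 0.957 RPKM in Zn4 cells against 1.45 and 1.56 RPKM in WT cells at 24 h.

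None of these 6 members' differences was called under all alternatives. The call of Zfp365 was lost with the Y-linked covariate (adjusted p = 0.112) and without any single library of 12 h (0.0736 to 0.184) or of WT 24 h (0.0563 and 0.0564). At 24 h, the calls of Zfp428, Zfp282, Zfp335, Zfp53 and Zfp28 were each lost without either WT library of 24 h. The adjusted p was 0.232 and 0.167 for Zfp428, 0.159 and 0.191 for Zfp282, 0.171 and 0.151 for Zfp335, 0.187 and 0.172 for Zfp53 and 0.121 and 0.186 for Zfp28. Calls were further lost without single libraries of Zn4 24 h for all 5 genes, of 12 h for Zfp428, Zfp282 and Zfp335, of Zn4 12 h for Zfp53 and of Zn4 0 h for Zfp53. Without Zn4 24 h replicate 1, the difference of Zfp335 was 0.21 in place of 0.32 (adjusted p = 0.202). At 12 h, Zfp28 had an adjusted p of 0.119 with the Y-linked covariate, and 0.0675 to 0.187 without any single library of 12 h or of WT 24 h.

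**Figure D4:**
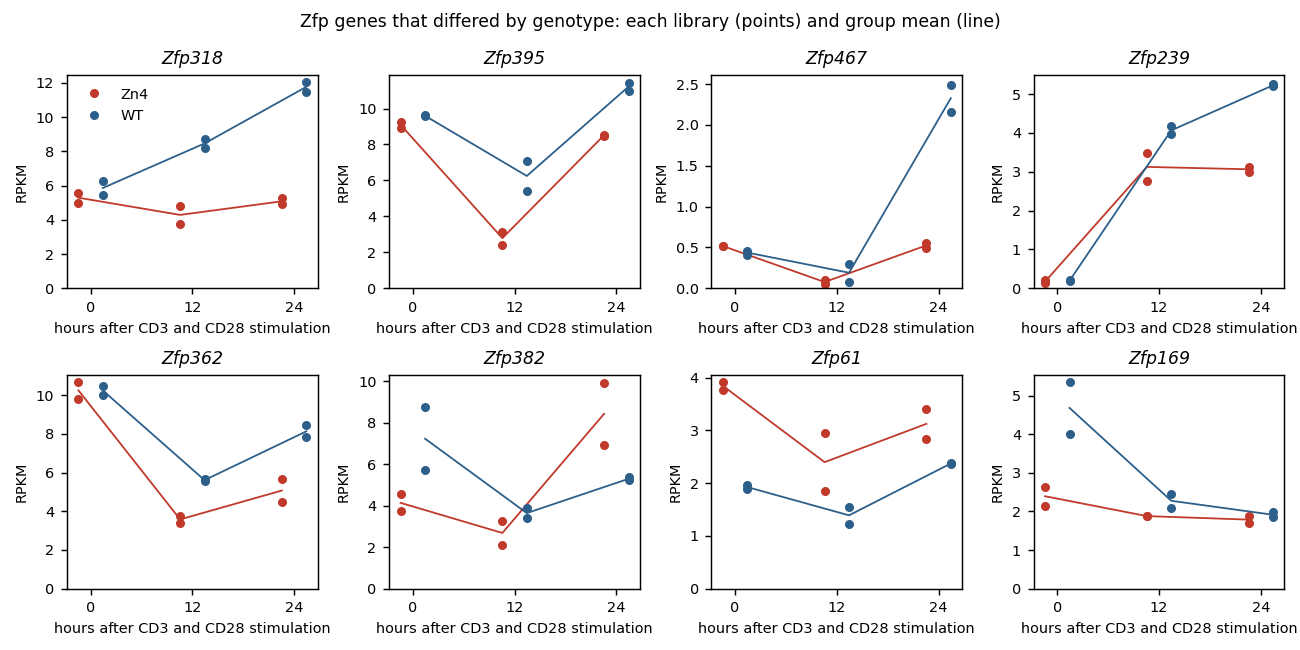
RPKM of 8 Zfp genes called between genotypes or in the interaction, by hours after stimulation; points are libraries, lines join the means of 2 libraries, and Zn4 (red) is drawn left of WT (blue). Zfp318 reached 11.5 and 12.1 RPKM in WT cells at 24 h while its Zn4 libraries stayed between 3.76 and 5.59 RPKM, and Zfp467 reached 2.16 and 2.50 RPKM in the WT libraries of 24 h alone.

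In the interaction, 2 members were called at 12 h against 0 h, both lower (5.12% of all genes called, 1.54% higher, 3.58% lower), and 4 at 24 h against 0 h, 1 higher and 3 lower (8.24% of all genes, 3.88% higher, 4.35% lower). All 6 values are those of Zfp318, Zfp395, Zfp382, Zfp239 and Zfp467 already given. At 12 h, 1 call or none was made without any single library except WT 0 h replicate 2. At 24 h, 2 calls were made without Zn4 0 h replicate 1, Zn4 24 h replicate 1, WT 24 h replicate 1 or either WT library of 12 h, 1 without the second WT library of 24 h, and 8 were made without Zn4 24 h replicate 2. With the block at each time point, 8 were called at 24 h (15.9% of all genes). Of these 5 genes, Zfp382 had a KRAB box in the sequences searched, and none was found in the others.

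Members with and without a KRAB box split differently in their counts, a difference that was not tested. In Zn4 cells at 24 h against 0 h, 21 of 61 tested members with a KRAB box rose and 23 fell (median 0.08), while 23 of 55 without one rose and 10 fell (median 0.13). In WT cells the counts at 24 h were 20 and 25 (median -0.21) with the box and 21 and 12 (median 0.15) without. At 12 h in Zn4 cells they were 17 and 22 (median -0.15) with the box and 23 and 14 (median 0.11) without. At 12 h in WT cells they were 16 and 25 (median -0.25) with the box and 19 and 13 (median 0.07) without. The order of the medians was the same under both other scalings, but with these falls outnumbered rises in both classes. Median-ratio scaling gave 17 and 29 with the box and 15 and 22 without in Zn4 cells at 24 h, and 16 and 33 with the box and 16 and 24 without in WT cells. The classes also differ in level (2.76 RPKM with the box and 7.81 RPKM without).

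The numbering of Zfp genes follows discovery, yet many lie together: 27 members are on chromosome 7, 13 on chromosome 13 and 12 on chromosome 17 (GENCODE M21, GRCm38). Linking members less than 200 kb apart gave 8 stretches of at least 3, with 40 members in them. On chromosome 13, 7 members lie within 561 kb from Zfp455 to Zfp85, and of the 6 tested, 0 rose and 5 fell at 24 h against 0 h in Zn4 cells and likewise in WT cells, under all 3 scalings. All 5 that fell, Zfp58, Zfp429, Zfp87, Zfp85 and Zfp456, share over 10% of their 50-base windows with another gene (19.7% to 59.0%), so that their values are uncertain. The tested member that was not called was Zfp65, with 7.28% of its windows shared (0.17 ± 0.11 in Zn4 cells and 0.19 ± 0.11 in WT cells, neither called).

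Neighbours could also move in opposite directions. On chromosome 17, Zfp54, Zfp51, Zfp53 and Zfp52 lie within 139 kb. In Zn4 cells, Zfp53 had 35.5 and 33.0 RPKM at 0 h, 11.1 and 11.2 RPKM at 12 h and 10.2 and 11.3 RPKM at 24 h. In WT cells, Zfp53 had 37.4 and 29.6 RPKM at 0 h, 15.3 and 12.4 RPKM at 12 h and 14.7 and 14.6 RPKM at 24 h. Zfp53 fell while Zfp52 rose, so that at 24 h the order of the pair was reversed in both genotypes. At 24 h against 0 h, Zfp53 changed by -1.59 ± 0.13, adjusted p = 2.3e-06 in Zn4 cells and -1.13 ± 0.13, adjusted p = 2.5e-05 in WT cells, and Zfp52 by 1.57 ± 0.24, adjusted p = 0.0002 in Zn4 cells and 2.10 ± 0.24, adjusted p = 2.8e-05 in WT cells. With either other scaling, 1 of the 4 rose and 2 fell. Both encode KRAB proteins, with 16 and 14 fingers, and share at most 1.07% of their 50-base windows with other genes. On chromosome 7, the stretch from Zfp180 to Zfp428 had 4 rises and 1 fall of 8 in Zn4 cells and 5 and 2 in WT cells, and that from Zfp84 to Zfp146 had 3 and 2 of 8 in Zn4 cells and 2 and 2 in WT cells. With median-ratio scaling these counts became 4 and 2 in each genotype for the stretch from Zfp180, and 2 and 3 in Zn4 cells and 2 and 4 in WT cells for that from Zfp84.

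**Figure D5:**
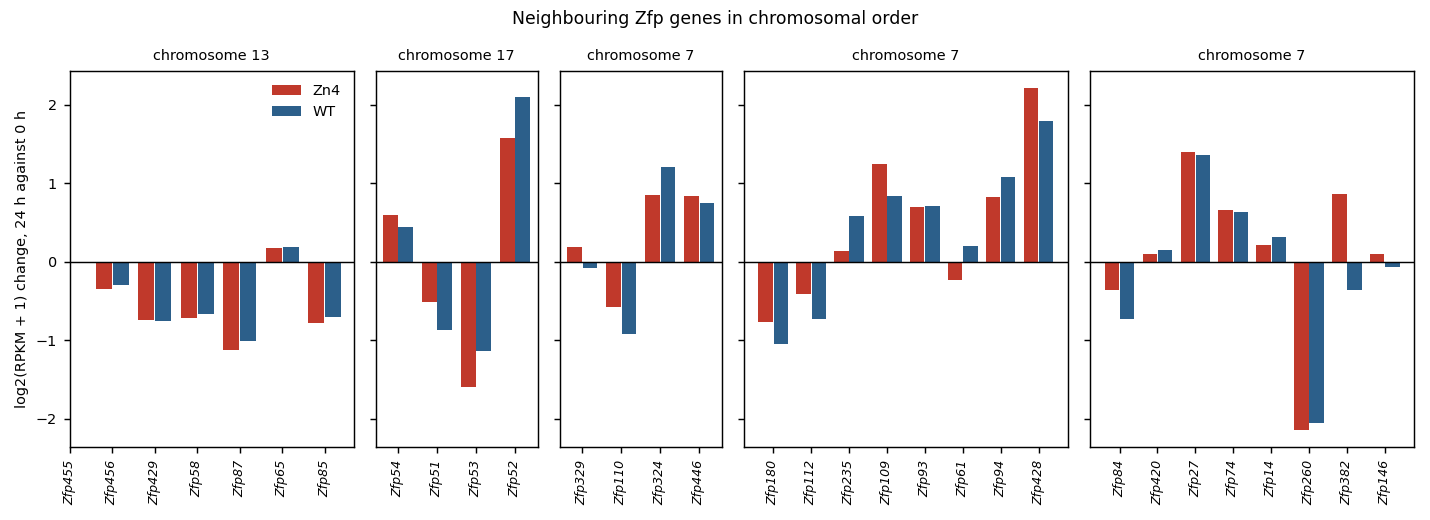
Change in log2(RPKM + 1) at 24 h against 0 h of Zfp genes in the 5 stretches of at least 4 neighbours, in chromosomal order, with Zn4 (red) left of WT (blue); Zfp455 was not tested and has no bar. Falls fill most of the chromosome 13 stretch, while Zfp53 and Zfp52 on chromosome 17 and Zfp260 and Zfp27 on chromosome 7 moved in opposite directions.

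Of 24 corepressor and heterochromatin genes of the KRAB silencing pathway, all tested, 18 rose (75%) and 2 fell (8.33%) at 24 h against 0 h in Zn4 cells and 17 rose (70.8%) and 2 fell (8.33%) in WT cells. Over all genes, 48.7% rose and 26% fell in Zn4 cells and 48.3% rose and 25.6% fell in WT cells. At 12 h, 14 rose and 3 fell in Zn4 cells and 15 rose and 2 fell in WT cells. The all-gene shares at 12 h were 43.5% higher and 29.6% lower in Zn4 cells, and 43.1% and 27% in WT cells. With median-ratio scaling the counts at 24 h were 12 and 4 in Zn4 cells and 14 and 4 in WT cells. Their median change at 24 h was 0.65 in Zn4 cells and 0.83 in WT cells at the deposited scaling.

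Trim28, the corepressor bound by KRAB boxes, changed by 1.10 ± 0.13, adjusted p = 2.9e-05 in Zn4 cells and 1.5 ± 0.13, adjusted p = 3.4e-06 in WT cells at 24 h. Setdb1 changed by 1.31 ± 0.21 in Zn4 cells and 1.46 ± 0.21 in WT cells, and Cbx5, which encodes HP1 alpha, by 2.94 ± 0.11 in Zn4 cells and 3.57 ± 0.11 in WT cells. The maintenance methyltransferase Dnmt1 (2.52 ± 0.17 in Zn4 cells and 2.90 ± 0.17 in WT cells) and its cofactor Uhrf1 (5.18 ± 0.21 in Zn4 cells and 5.74 ± 0.21 in WT cells), both also S-phase genes, had the largest rises together with Cbx5. The 2 that fell were Atf7ip (-1.21 ± 0.14 in Zn4 cells and -1.14 ± 0.14 in WT cells), a partner of Setdb1, and the remodeller Chd3 (-1.92 ± 0.11 in Zn4 cells and -0.85 ± 0.11 in WT cells). Between genotypes at 24 h, Morc2a was higher in Zn4 cells (0.50 ± 0.13, adjusted p = 0.0232), and Chd3 (-1.01 ± 0.11, adjusted p = 0.000354), Ehmt2 (-0.67 ± 0.10, adjusted p = 0.00157) and Cbx5 (-0.51 ± 0.11, adjusted p = 0.0109) were lower. These are 16.7% of the 24 genes, where 19.4% of all genes were called. By direction, 4.17% were higher and 12.5% lower, against 9.4% and 9.96% of all genes.

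Of 126 tested Zfp genes numbered 500 or more, 43 rose and 39 fell in Zn4 cells and 40 rose and 42 fell in WT cells at 24 h against 0 h. These are 34.1% and 31% in Zn4 cells and 31.7% and 33.3% in WT cells. The shares of all genes were 48.7% higher and 26% lower in Zn4 cells, and 48.3% and 25.6% in WT cells. Zbtb genes, which pair fingers with a BTB domain, had 9 rises and 12 falls of 33 in Zn4 cells and 6 and 15 in WT cells, with a median of -0.11 in Zn4 cells and -0.28 in WT cells. The 18 Zscan and Zkscan genes had 7 and 5 in Zn4 cells and 7 and 8 in WT cells. With median-ratio scaling falls outnumbered rises in all 3 families and both genotypes, with 28 rises and 56 falls of the 126 in Zn4 cells and 25 and 63 in WT cells. Between genotypes at 24 h, 8 of the 126 higher-numbered Zfp genes were higher in Zn4 cells and 7 lower, 11.9% in all. Members were called in 7.69% of cases, Zbtb genes in 15.2% and Zscan and Zkscan genes in 5.56%, against 19.4% of all genes. These differences were not tested.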

How the data were processed

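The 12 libraries were made with a stranded, single-end mRNA kit, per the labels' protocols. The authors aligned the reads and counted them per gene before they deposited RPKM values, and the submitters' processing notes name TopHat2 2.0.12, HTSeq 0.6.1 and mouse build mm10. The deposited RPKM table was used as given, and where 7 symbols stand on 2 identical lines 1 was kept. The 12726 genes that reached 1 RPKM in 2 or more libraries were tested with limma 3.58.1 in R 4.3.3 on log2(RPKM + 1), with a pseudocount of 1, which understates the change of low genes. The fit had 1 mean per group, all 12 libraries, 6 residual degrees of freedom and a trended prior, and p-values were Benjamini-Hochberg adjusted within each of 11 comparisons. Every limma value is printed with its standard error. Whole reads were recovered from the steps of the RPKM values for 12884 of 12885 symbols (within 0.02 of a whole number) and fitted with voom as an alternative. The other alternatives were no filter or one at 5 RPKM, a pseudocount of 0.1, median-ratio and quantile scaling, replicate blocks, only the libraries compared, a Y-linked covariate and the removal of each library. KRAB boxes were found with a profile in pyhmmer 0.12.3 (e-value 0.0001). The scripts were tested on simulated data. Members and lists were chosen with earlier results of these data known. The naming rule took up to 10 called members with the largest rise and fall in each comparison. It also took those called in an interaction and members with a known role. Not all members and values under the rule are printed here. Other members, named for level, position or sequence, were chosen after their values were seen.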

Additional observations from a re-analysis of the deposited data

Results flagged for a closer look

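The change on activation differed between genotypes for 5 Zfp genes by the interaction term of the limma fit, with a log2 difference of Zn4 change minus WT change and a Benjamini-Hochberg adjusted p over all genes tested. At 12 h against 0 h it was -0.72 for Zfp318 (adjusted p = 0.0428) and -0.86 for Zfp395 (adjusted p = 0.0281). At 24 h against 0 h it was -1.20 for Zfp467 (adjusted p = 0.00425), -0.95 for Zfp318 (adjusted p = 0.0111) and -0.59 for Zfp239 (adjusted p = 0.0474), and Zfp382 had 1.23 (adjusted p = 0.0448). The call of Zfp467 held in all 22 alternatives that tested it, and those of the other 5 values were lost in at least 1.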

How the results depend on the processing

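Of 176 values under the naming rule, not all of them printed here, 114 kept their call and direction in every alternative, 61 lost the call in at least 1 and 8 reversed. The deposited scaling placed the median gene 0.19 to 0.31 above 0 on the log2 scale in the comparisons with 0 h, against -0.02 to 0.00 with median-ratio scaling; rises below that shift are not distinguishable from it. Reversed under median-ratio and quantile scaling in Zn4 cells at 24 h against 0 h were Zfp148 (-0.048 and -0.091), Zfp207 (-0.085 and -0.123), Zfp384 (-0.023 and -0.048), Zfp410 (-0.010 and -0.032) and Zfp445 (-0.098 and -0.137), and under quantile scaling Zfp335 (-0.012). At 12 h against 0 h in Zn4 cells they were Zfp335 (-0.036 and -0.052) and, under quantile scaling, Zfp207 (-0.086). The cause was not tested.

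Counts of called Zfp genes moved by over 1.5 times as follows. Between genotypes at 0 h the count was 0 with a filter at 5 RPKM or with only the libraries compared (13 at an unadjusted p under 0.05 in the full fit), at 12 h 9 with voom on recovered reads and 3 with the Y-linked covariate, and at 24 h 5 without the libraries of 12 h, an alternative chosen after seeing the data. At 5 RPKM, where fewer genes are tested, it was 51 in Zn4 cells at 12 h against 0 h, 50 in WT cells at 24 h against 0 h and 9 in WT cells at 24 h against 12 h. In that last comparison it was 37 with only its own libraries and 7 with the Y-linked covariate, which gave 50 in Zn4 cells at 12 h against 0 h and 4 in Zn4 cells at 24 h against 12 h. The interaction at 12 h counted 1 with a pseudocount of 0.1, median-ratio scaling, quantile scaling, the replicate block or the Y-linked covariate, and 0 with only its own libraries. The interaction at 24 h counted 2 with a pseudocount of 0.1, only its own libraries, the Y-linked covariate or no libraries of 12 h.

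Without single libraries the counts ran from 0 to 2 between genotypes at 0 h, 2 to 7 at 12 h and 3 to 11 at 24 h. They ran from 64 to 82, 71 to 85 and 11 to 26 in Zn4 cells (12 h against 0 h, 24 h against 0 h, 24 h against 12 h), and from 68 to 77, 66 to 81 and 6 to 19 in WT cells. The interactions ran from 0 to 2 at 12 h and 1 to 8 at 24 h.

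With the replicate number as a block, 2, 6 and 9 members differed between genotypes at 0 h, 12 h and 24 h. Deviations of replicate 1 correlated at 0.61 between Zn4 and WT at 0 h and at -0.12 to 0.19 in other pairs of groups. At 0 h, libraries of the same number therefore varied together, which the fit without a block leaves out. The cause was not tested. With a block at each time point, 10.6% of all genes were called between genotypes at 0 h, against 5.72% without a block. A block at each time point, chosen after seeing the data, gave 13 at 12 h, 20 at 24 h and 8 in the interaction at 24 h.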
